A study of Mus musculus with 30 samples.

Results

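This account covers 10 genes of the JAK-STAT pathway: the Janus kinase genes Jak1, Jak2 and Jak3, the transcription factor genes Stat3, Stat5a, Stat5b and Stat6, the feedback inhibitor genes Socs1 and Socs3, and the kinase gene Pim1. They were chosen by name, and all 10 were found among the 26266 genes of the young table and among the 22781 genes of the aged table. The study asked what a missense mutation of Ikzf3 (L161R), which encodes the zinc finger transcription factor Aiolos, changes in B cells before leukaemia and in the leukaemia that old mutant mice develop. RNA was sequenced from spleen B cells of C57BL/6 mice in 18 libraries. The young set, 3 months old by the sample labels and 2 to 3 months by the protocol, holds 3 libraries of homozygous mutant B cells (Ikzf3 fl/fl) and 3 of wild-type B cells. The aged set, at 15 to 18 months, holds 5 libraries of CLL cells (chronic lymphocytic leukaemia-like cells, sorted for B220 and CD5), 4 of B cells outside the leukaemia from those mice (non-CLL cells), and 3 of wild-type cells. CLL libraries 1, 2, 4 and 5 come from heterozygous mice (Ikzf3 fl/+) and library 6 from a homozygous mouse, and the non-CLL libraries 2, 4, 5 and 6 carry the numbers of their mice. The mutant allele is expressed in B cells only. The promoter that drives its recombination is not given in the sources used here.

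Cytokine receptors of the class served by this pathway have no kinase of their own. When a cytokine binds, the receptor-bound Janus kinases phosphorylate each other and the receptor, STAT proteins dock, are phosphorylated and move to the nucleus, and among the genes they switch on are those for SOCS proteins, which shut the receptor down, and for PIM kinases, which promote survival. In B cells, Jak1 and Jak3 serve the receptors that share the common gamma chain, Stat6 carries the interleukin-4 signal and Stat3 the signals of interleukin-6, interleukin-10 and interleukin-21. These steps run on phosphorylation, which RNA levels do not measure.

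Values are TPM (transcript abundance per unit of gene length, scaled to the same total in each library), so levels of different genes in a library can be set side by side, but the read depth behind each value is unknown. A gene is called higher or lower where limma's moderated test on log2(TPM + 1), adjusted over all genes tested, gave an adjusted p under 0.05, and changes are given as log2 with their standard error (SE). In these bulk samples, fewer cells of a type and less RNA per cell cannot be told apart. The labels do not say that the young libraries come from separate animals, so their p-values measure the spread between libraries, which may be technical.

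Several libraries stand apart. All 8 B cell markers were above 0 in every library. The 22 myeloid markers summed to between 357 and 803 TPM in young homozygous libraries and between 1866 and 6458 TPM in young wild-type libraries, with none at 0. Young wild-type libraries 1 and 2 held Xist (80.9 and 63.1 TPM), while young wild-type library 3 and the homozygous libraries held the Y-linked Ddx3y (54.3 TPM, and 107 to 148 TPM). CLL library 2 had a sum of 7625 TPM over 20 myeloid markers, against 275 to 580 TPM in the other CLL libraries. Aged wild-type library 2 held both Xist (38.1 TPM) and Ddx3y (17.4 TPM). The 14 NK and dendritic cell markers summed to between 45.4 and 154 TPM in CLL cells, 461 and 1954 TPM in non-CLL cells and 44.4 and 243 TPM in aged wild-type cells. The median of 1106 olfactory receptor genes, which B cells should not express, was 1.08 to 9.66 TPM in CLL libraries, 7.16 to 9.24 TPM in non-CLL libraries and 0 to 0.745 TPM in aged wild-type libraries. This background, which the young table lacks (a median of 0 in every library), bears on low values of the aged set.

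In young homozygous B cells the inhibitor genes Socs1 and Socs3 were called lower, while Pim1, all 3 Janus kinase genes, Stat6 and Stat3 were called higher. The 8 called genes compare with 51.0% of all 12219 genes tested, 38.4% higher and 12.6% lower. The median log2 change was 0.45 over the 10 genes and 0.18 over all genes tested. Median scaling shifted each library by its median log2 deviation from the gene means. Under it 2935 genes were called higher and 2809 lower in place of 4698 and 1539, and 7 of the 10 genes were called. Groups of 3 against 3 cannot give an exact permutation p under 0.1 for a single gene.

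Socs3, which blocks gp130-type receptors and Jak kinases, lies on chromosome 11 (117966079 to 117970336 in GRCm38.p6, the assembly of mm10). It stood at 4.82, 3.74 and 3.84 TPM in homozygous B cells, against 9.93, 12.6 and 10.6 TPM in wild-type B cells. The groups do not overlap. Wild-type library 3 had the lowest myeloid sum of its group, still above that of every homozygous library. Its Socs3 value was within the range of the other wild-type libraries, and the part of the myeloid sums was not tested. The log2 change was -1.23 (SE 0.14, adjusted p = 0.00036, limma).

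Socs1, which inhibits Jak1 and Jak2 in interferon and interleukin-4 signalling, lies on chromosome 16 (10783808 to 10785536). It stood at 1.72, 1.11 and 2.03 TPM in homozygous B cells and at 5.71, 5.04 and 3.69 TPM in wild-type B cells. Each homozygous library was below each wild-type library, and wild-type library 3 was the lowest of its group. The log2 change was -1.15 (SE 0.20, adjusted p = 0.00177). At these levels the added 1 TPM of the log scale shrinks the change, and the ratio of the means was 0.337 for Socs1 and 0.374 for Socs3.

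Stretches upstream of a listed transcript start of both genes are shown because they are the members that were called lower. The windows of 250 bases before the transcript starts in the RefSeq table (GRCm38.p6) were searched on both strands for TTCNNNGAA (the spacing bound by most STAT proteins), TTCNNNNGAA (the spacing preferred by Stat6) and TGGGAA (the core bound by Ikaros family proteins, to which Aiolos belongs). All 10 genes had at least 1 window, 13 in all. A listed start can lie within the annotated gene: 6 windows, that of Socs3 among them, lie wholly inside the span of their gene, and that of Socs1 lies before it. Only the Socs3 window held TTCNNNGAA, none held TTCNNNNGAA and only the Socs1 window held TGGGAA, with no overlap between motifs. Of 32851 windows of the same length, 7.02% held TTCNNNGAA, 5.85% held TTCNNNNGAA and 21.6% held TGGGAA. Capitals mark the motif, and a match of letters is not evidence of binding.
Socs3, 30 bases, chr11:117969502-117969531, minus strand: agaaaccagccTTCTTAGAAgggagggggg
Socs1, 250 bases, chr16:10785537-10785786, minus strand: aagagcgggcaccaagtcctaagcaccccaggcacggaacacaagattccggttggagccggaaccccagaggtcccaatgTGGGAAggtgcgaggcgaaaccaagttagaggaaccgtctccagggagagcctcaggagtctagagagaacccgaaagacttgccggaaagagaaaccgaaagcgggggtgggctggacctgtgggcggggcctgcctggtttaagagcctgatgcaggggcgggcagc

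Pim1, a serine/threonine kinase that is a known STAT target (chromosome 17, 29490785 to 29496111), stood at 155, 171 and 157 TPM in homozygous B cells and at 86.6, 88.2 and 69.0 TPM in wild-type B cells. The lowest homozygous value was above the highest wild-type value. The log2 change was 0.99 (SE 0.10, adjusted p = 0.000302).

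Jak1 had the highest level of the Janus kinase genes in every young library (chromosome 4, 101151974 to 101265282). It stood at 283, 326 and 319 TPM in homozygous B cells and at 188, 193 and 222 TPM in wild-type B cells (log2 change 0.62, SE 0.09, adjusted p = 0.00111). Jak3, the kinase bound to the common gamma chain (chromosome 8, 71676383 to 71690577), stood at 68.8, 57.0 and 70.4 TPM in homozygous B cells, against 37.7, 33.4 and 50.4 TPM in wild-type B cells. The change was log2 0.69 (SE 0.16, adjusted p = 0.0079). Jak2 (chromosome 19, 29251803 to 29313095) stood at 73.9, 97.8 and 78.2 TPM in homozygous B cells and at 50.4, 56.5 and 61.5 TPM in wild-type B cells, with a log2 change of 0.56 (SE 0.12, adjusted p = 0.00485). The groups do not overlap for any of the 3 kinases, with wild-type library 3 the highest of its group each time.

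Stat6 (chromosome 10, 127642955 to 127660987) had the highest level of the 4 STAT members in every young library. It stood at 155, 186 and 170 TPM in homozygous B cells and at 110, 112 and 123 TPM in wild-type B cells, which gave a log2 change of 0.56 (SE 0.09, adjusted p = 0.00134). Stat3 (chromosome 11, 100886806 to 100939594) stood at 81.3, 95.7 and 97.9 TPM in homozygous B cells, against 68.1, 68.7 and 77.7 TPM in wild-type B cells, which gave a log2 change of 0.35 (SE 0.10, adjusted p = 0.0143). The Stat3 call ended without wild-type library 1 (adjusted p = 0.0583) and also without homozygous library 2 (0.0546) or 3 (0.063), and with median scaling (log2 change 0.16, adjusted p = 0.123).

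Stat5a and Stat5b encode near-identical proteins and lie next to each other and to Stat3 on chromosome 11 (100859351 to 100885169, and 100780731 to 100859004). How reads shared by the pair were counted is not given in the sources used here, so their values are uncertain. Stat5a stood at 24.2, 24.3 and 26.0 TPM in homozygous B cells and at 21.5, 19.2 and 23.0 TPM in wild-type B cells. The groups do not overlap, and the change was not called (log2 0.22, adjusted p = 0.0741), though it was without wild-type library 3 (adjusted p = 0.0344). Stat5b stood at 44.0, 45.4 and 48.4 TPM in homozygous B cells, against 39.7, 40.4 and 45.1 TPM in wild-type B cells. These groups overlap (log2 change 0.14, adjusted p = 0.194).

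**Figure D1:**
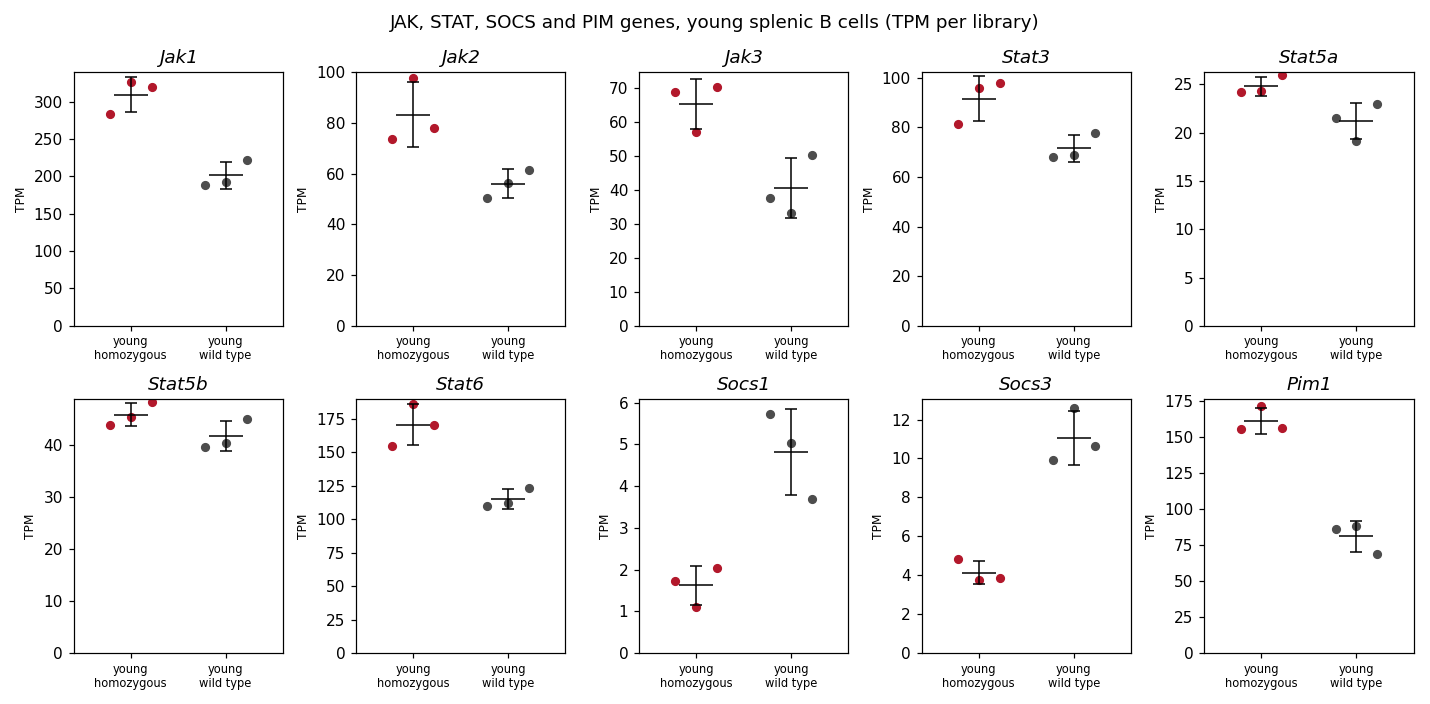
TPM of each of the 10 genes in the 3 young homozygous and 3 young wild-type libraries, with each dot a library and the bar the mean with SD. For 9 of the 10 genes the groups do not overlap (61.4% of all genes tested), with Stat5b the exception, and Socs1 and Socs3 are the 2 genes lower in homozygous B cells.

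With wild-type libraries 1 and 2 left out, which hold Xist and the higher myeloid sums, the single remaining wild-type library was assumed to vary like the homozygous ones. The median log2 change was then 0.30 over the 10 genes and 0.15 over all genes tested. The calls ended for Jak2 (log2 change 0.42), Jak3 (0.36), Stat3 (0.23) and Socs1 (-0.85), all with smaller changes than over all libraries. The part of the myeloid sums in these results was not tested, and only wild-type library 3 shares the Y-linked signal of the homozygous libraries.

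Other genes of the pathway were counted from lists chosen by role. In young homozygous B cells 38.4% of all genes tested were called higher and 12.6% lower. Both other PIM kinase genes were called higher in young homozygous B cells. Pim3 stood at 56.2 ± 1.29 TPM in B cells of homozygous mice and 23.4 ± 1.29 TPM in those of wild-type mice (SD, n = 3 each; log2 change 1.23, adjusted p = 2.58e-05, limma). Pim2 stood at 76.8 ± 3.43 TPM in B cells of homozygous mice and 37.6 ± 2.90 TPM in those of wild-type mice (log2 change 1.01, adjusted p = 0.000107, limma). Of the 3 other JAK and STAT genes counted, Stat2 (log2 change 0.53) and Tyk2 (0.25) were called higher and none lower. Of 5 other SOCS family genes tested, Socs4 (0.63), Socs7 (0.41) and Socs5 (0.33) were called higher and none lower. The calls of Tyk2, Socs7 and Socs5 ended without wild-type library 1 or 2 or homozygous library 2 or 3 (adjusted p from 0.0658 to 0.0996). They also ended after median scaling, with log2 changes of 0.05, 0.22 and 0.14 (adjusted p = 0.53, 0.137 and 0.208, limma).

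Of 16 phosphatases, PIAS proteins and adaptors of the pathway, 10 were called higher and 1 lower in homozygous B cells. The counts of this and the next lists stand beside 38.4% of all genes called higher and 12.6% lower. The largest change was that of Cbl, a ubiquitin ligase (log2 change 1.37), and the lower gene was the adaptor gene Sh2b2 (-0.50). Of 31 receptor genes tested, 7 were called higher and 6 lower. The largest changes were those of Il2ra, the alpha chain of the interleukin-2 receptor (0.68), and of Csf3r, the receptor of granulocyte colony-stimulating factor (-2.56), which is also on the myeloid list. The Csf3r call ended without wild-type library 1 (adjusted p = 0.0887) or 2 (0.0639) or homozygous library 2 (0.086) or 3 (0.0795). Of 8 cytokine genes tested, 2 were called higher and 3 lower, with Il10 at 1.52 and Ebi3, a subunit of interleukin-27 and interleukin-35, at -1.63. Il10 stood at 2.67 ± 0.56 TPM in B cells of homozygous mice and 0.275 ± 0.172 TPM in those of wild-type mice (SD, n = 3 each). It passed the filter of 1 TPM only through the homozygous libraries, since every wild-type library was under it, so this call is a description. Of 26 STAT target genes tested, 11 were called higher and 2 lower. The largest changes were those of Fos, an immediate early transcription factor (2.45), whose call ended without homozygous library 2 (adjusted p = 0.0619), and of the cytokine gene Osm (-1.09). The median log2 change was -0.16 over the receptor genes, -0.23 over the cytokine genes and 0.22 over the STAT targets, beside 0.18 over all genes tested.

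**Figure D2:**
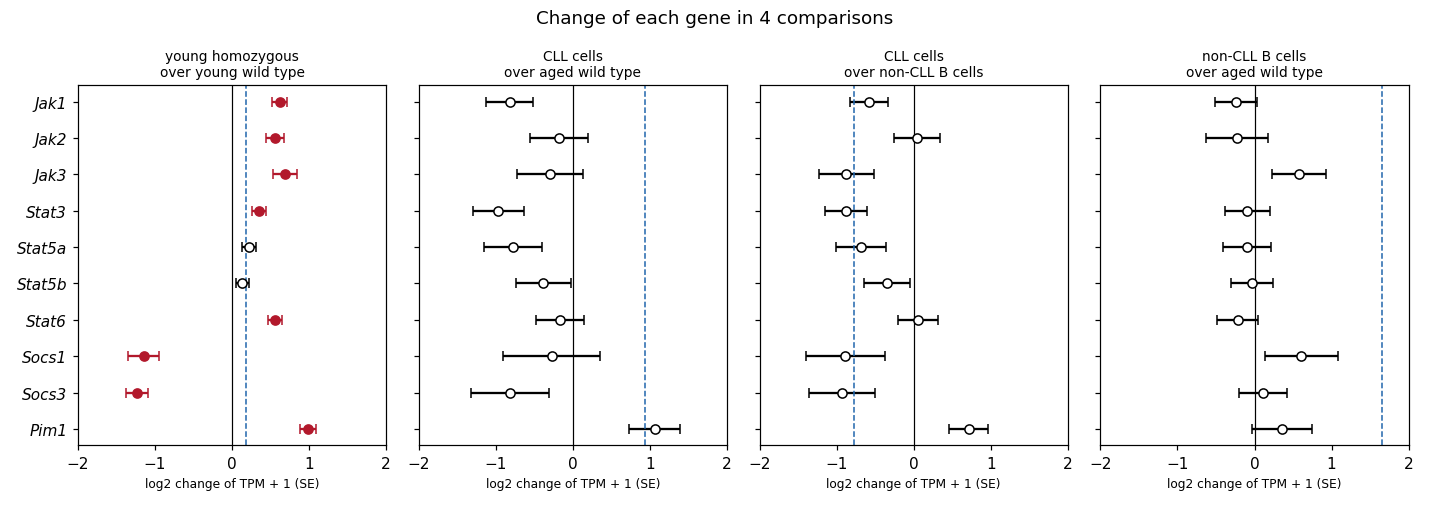
Log2 change of TPM + 1 with its SE for each gene in the 4 comparisons, filled red where the adjusted p was under 0.05, with the median over all genes tested as a dashed line. In young B cells 8 genes are filled, and none is in the 3 aged comparisons, whose errors are larger.

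In the aged set no gene of the 10 was called by limma in any of the 3 comparisons. Of all genes tested, 3.54% were called for CLL against aged wild-type cells, 5.77% for CLL against non-CLL cells and 57.3% for non-CLL against aged wild-type cells. Without overlap between the groups, Pim1 had higher, and Stat3, Jak1 and Socs3 lower, levels in CLL cells than in non-CLL cells, beside 1.17% of all genes higher and 7.51% lower. These 3 comparisons share libraries, so they are not independent of each other.

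Pim1 stood at 456, 389, 519, 624 and 599 TPM in CLL cells (libraries 1, 2, 4, 5 and 6), at 260, 293, 328 and 372 TPM in non-CLL cells (libraries 2, 4, 5 and 6) and at 130, 501 and 220 TPM in aged wild-type cells. Aged wild-type library 2 reached into the range of the CLL cells, and the other wild-type libraries lay below it. The log2 change was 0.71 for CLL against non-CLL cells (SE 0.25, adjusted p = 0.0618) and 1.06 for CLL against aged wild-type cells (SE 0.33, adjusted p = 0.0525). Median scaling put the change against aged wild-type cells at 0.11 (adjusted p = 0.869) and that against non-CLL cells at 1.49 (adjusted p = 0.0616). Scaling on genes over 20 TPM called 1 of the 10 genes higher and 1 lower in CLL than in aged wild-type cells. Pim1 was the only 1 of the 10 with a log2 change above 0 in the main fit of that comparison. Against non-CLL cells that scaling called 0 of the 10. Without aged wild-type library 2 the change against aged wild-type cells was 1.58 (adjusted p = 0.000317), and without CLL library 6 the change against non-CLL cells was 0.66 (adjusted p = 0.0339).

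Stat3 stood at 116, 140, 70.9, 157 and 136 TPM in CLL cells, 217, 251, 232 and 186 TPM in non-CLL cells and 200, 381 and 170 TPM in aged wild-type cells. Every CLL library was below every other aged library. The log2 change was -0.88 against non-CLL cells (SE 0.27, adjusted p = 0.0509) and -0.97 against aged wild-type cells (SE 0.33, adjusted p = 0.0542).

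Jak1 stood at 220, 231, 215, 257 and 279 TPM in CLL cells, 320, 393, 357 and 369 TPM in non-CLL cells and 549, 263 and 523 TPM in aged wild-type cells. CLL and non-CLL libraries do not overlap, while aged wild-type library 2 lies within the CLL range. The log2 change was -0.58 against non-CLL cells (adjusted p = 0.0867) and -0.82 against aged wild-type cells (adjusted p = 0.0567). Jak3 stood at 14.7, 14.2, 12.02, 16.7 and 30.9 TPM in CLL cells, 34.2, 24.7, 23.2 and 49.9 TPM in non-CLL cells and 21.6, 27.6 and 15.0 TPM in aged wild-type cells. CLL library 6, from the homozygous mouse, was the only CLL library above any non-CLL library.

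Socs3 stood at 4.90, 7.16, 8.90, 9.09 and 5.08 TPM in CLL cells, 13.8, 12.2, 15.7 and 14.0 TPM in non-CLL cells and 15.8, 11.6 and 11.4 TPM in aged wild-type cells. Every CLL library was below every other aged library, though neither change was called (log2 -0.93, adjusted p = 0.111 against non-CLL cells, and -0.82, adjusted p = 0.202 against aged wild-type cells). In CLL library 6 and the non-CLL libraries these values lie among those of the olfactory receptor genes, at their percentiles 9.58 and 72.7 to 97.8. Socs1 stood at 1.79, 1.25, 0.17, 1.33 and 3.35 TPM in CLL cells, 5.74, 2.69, 1.85 and 4.18 TPM in non-CLL cells and 0.64, 5.22 and 1.32 TPM in aged wild-type cells. In the CLL and non-CLL libraries it lay between percentiles 2.98 and 63.7 of the olfactory receptor genes, so its level there cannot be told from background.

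The remaining 4 genes overlapped between all aged groups. Stat5a was at 21.2 to 38.2 TPM in CLL cells (median 22.2), 30.2 to 66.0 TPM in non-CLL cells and 35.1 to 52.3 TPM in aged wild-type cells. Stat5b was at 26.2 to 51.5 TPM in CLL cells, 39.8 to 56.8 TPM in non-CLL cells and 36.1 to 59.8 TPM in aged wild-type cells. Jak2 was at 30.8 to 72.7 TPM in CLL cells, 38.0 to 55.1 TPM in non-CLL cells and 25.0 to 90.8 TPM in aged wild-type cells, with the widest range among the wild-type libraries. Stat6 stood at 134 to 155 TPM in CLL cells, 96.5 to 170 TPM in non-CLL cells and 136 to 207 TPM in aged wild-type cells, with a log2 change of 0.06 between CLL and non-CLL cells (SE 0.26).

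**Figure D3:**
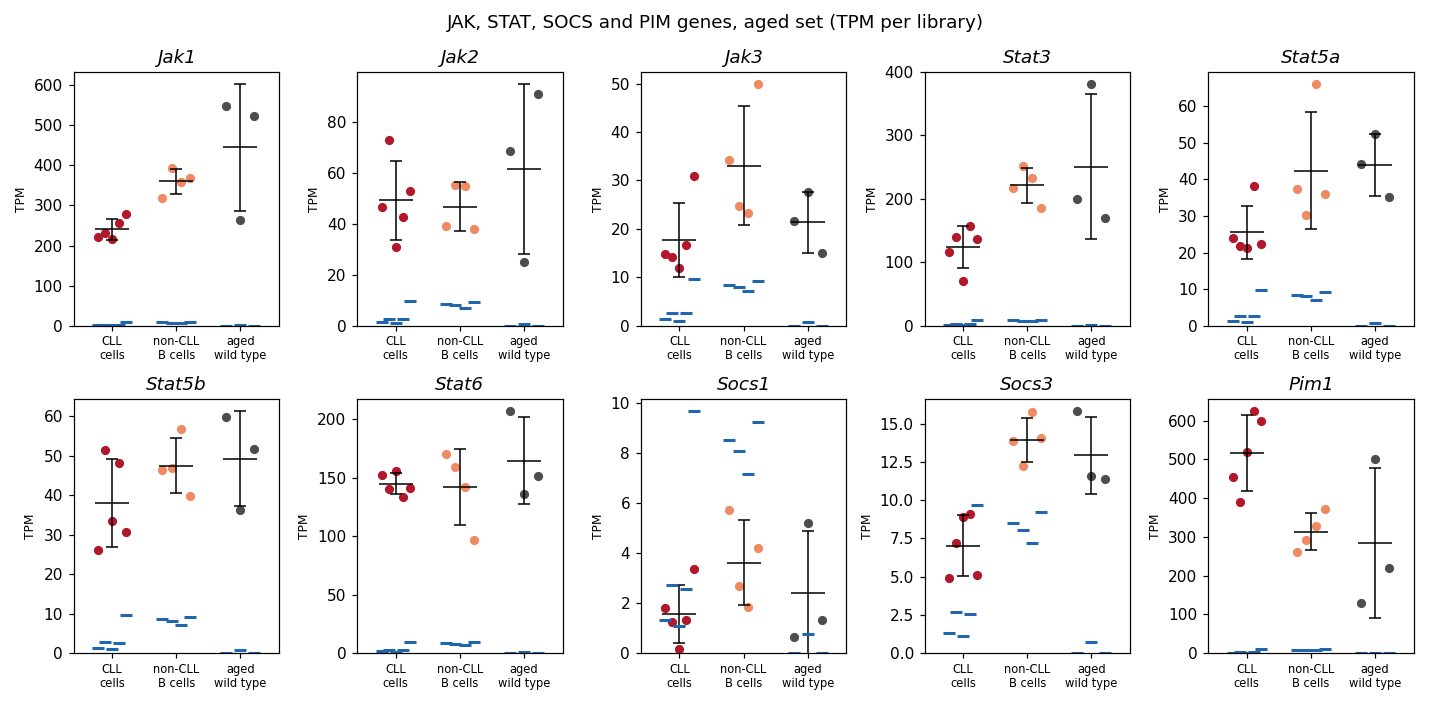
TPM of the 10 genes in the 5 CLL, 4 non-CLL and 3 aged wild-type libraries, with each dot a library, the bar the mean with SD and blue ticks the median of the olfactory receptor genes in that library. Stat3 and Socs3 are lower in every CLL library than in every other library, and Socs1 lies below the blue tick in every CLL and non-CLL library except CLL library 1, and above it in the aged wild-type libraries.

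For CLL against aged wild-type cells, 0 of the 10 genes were called and 4 had an unadjusted p under 0.05 (Pim1 higher, and Jak1, Stat3 and Stat5a lower), beside 3.54% called and 46.1% at that unadjusted p among all 21202 genes tested. The groups did not overlap for Stat3 and Socs3, both lower, beside 2.55% of all genes lower without overlap. The median log2 change was -0.34 over the 10 genes and 0.93 over all genes tested, and -0.04 over the 6972 genes with at least 20 TPM. Of all genes, 623 were called higher and 128 lower, and 174 and 981 after median scaling. Without aged wild-type library 2 the calls were Pim1 higher and Jak1 lower, beside 4258 of 22072 genes in all. Without CLL library 1 they were Pim1, Jak1 and Stat3 (5112 of 20685 genes), and without CLL library 2 Pim1 (856 of 19774). Without CLL library 4 they were Pim1 and Jak1 (8222 of 20885 genes), and without CLL library 6 Jak1 and Stat3 (5643 of 19496).

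For CLL against non-CLL cells, 0 of the 10 genes were called and 6 had an unadjusted p under 0.05 (Pim1 higher, and Jak1, Jak3, Stat3, Stat5a and Socs3 lower). Among all 22316 genes tested 5.77% were called, 39.4% were at that unadjusted p, 1.17% were higher without overlap and 7.51% were lower without overlap. Of the 10 genes, Pim1 was higher and Jak1, Stat3 and Socs3 were lower without overlap. The median log2 change was -0.63 over the 10 genes, -0.77 over all genes tested and -0.06 over the 7175 genes with at least 20 TPM. Median scaling, which moves every gene by about the median of all genes, called 181 genes higher and 99 lower in place of 166 and 1121. Under it the log2 changes of Jak1 (0.19), Stat5a (0.09) and Stat5b (0.42) turned positive, and those of Stat3 (-0.10), Jak3 (-0.10), Socs1 (-0.11) and Socs3 (-0.16) came close to 0 (adjusted p from 0.796 to 0.856). Scaling on genes over 20 TPM instead left the median log2 change of the 10 genes at -0.59. It called 0 of the 10, and 165 genes higher and 721 lower in all. Taken mouse by mouse, Pim1 was higher in CLL than in non-CLL cells in 4 of 4 mice, by log2 0.58 to 0.93. Jak1, Jak3, Stat3, Stat5a, Socs1 and Socs3 were lower in 4 of 4, with Socs1 at the background level. Socs3 also lay among the olfactory receptor genes in the non-CLL libraries (percentiles 72.7 to 97.8). The medians of those genes were 7.16 to 9.24 TPM in non-CLL and 1.08 to 9.66 TPM in CLL libraries. The size of the Socs3 change, and its lack of overlap, are therefore uncertain. Of all genes tested, 4.36% were higher and 34.0% lower in CLL cells in every mouse. With the mouse as a block 0 of the 10 genes were again called, and 697 genes in all, against 1287 without the block. CLL library 1 has no non-CLL partner, so it adds nothing to the log2 changes of the block fit. Without that library and without the block, 333 genes and 0 of the 10 were called. Leaving out CLL library 6 gave 6 called members (Pim1 higher, and Jak1, Jak3, Stat3, Socs1 and Socs3 lower) and 11118 called genes. Leaving out both libraries of mouse 6, the homozygous one, gave 4 (Pim1 higher, and Jak1, Jak3 and Stat3 lower) and 11173 called genes. The NK and dendritic cell marker sums, higher in the non-CLL libraries, move with this comparison, and 10 of those 14 markers were called lower in CLL cells. Their part in these results was not tested.

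For non-CLL cells against aged wild-type cells, 0 of the 10 genes were called, 0 had an unadjusted p under 0.05 and 0 were without overlap, beside 57.3%, 61.2% and 56.0% of all 22150 genes tested. The median log2 change was -0.06 over the 10 genes and 1.65 over all genes tested, but 0.02 over the 7220 genes with at least 20 TPM. Without aged wild-type library 2, Pim1 (log2 0.87, adjusted p = 0.0232) and Socs1 (1.17, adjusted p = 0.0456) were called higher, Socs1 at non-CLL levels that lie within the background, and Jak1 (-0.58, adjusted p = 0.0256) and Jak2 (-0.76, adjusted p = 0.0385) lower. Of all 22444 genes tested in that fit, 12556 were called. Median scaling shifts every gene by about the 1.65 that all genes moved, and under it all 10 genes were called lower, and 6266 genes higher and 7212 lower in place of 12353 and 328. Scaling on genes over 20 TPM called 0 of the 10 and 12785 genes in all.

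Of the 3 other JAK and STAT genes counted (Tyk2, Stat2 and Stat4), 1 was called lower in CLL cells against aged wild-type cells and 2 in CLL against non-CLL cells, with none higher. Of all genes tested, 0.604% were called lower against aged wild-type cells and 5.02% against non-CLL cells. In non-CLL against aged wild-type cells limma called 0 of the 3, and 0 had an unadjusted p under 0.05, beside 57.3% and 61.2% of all genes. Stat4, which carries interleukin-12 signals, stood at 4.58 ± 4.23 TPM in the 5 CLL libraries, 40.3 ± 16.9 TPM in the 4 non-CLL libraries and 61.4 ± 31.9 TPM in the 3 aged wild-type libraries (mean ± SD). Against non-CLL cells the log2 change was -3.05 (adjusted p = 0.000487, limma) and -3.60 against aged wild-type cells (adjusted p = 1.23e-05, limma). The Stat4 values of CLL libraries (1.30 to 11.8 TPM) lie near the olfactory receptor medians there (1.08 to 9.66 TPM), so the size of these changes is uncertain. Stat2, which carries interferon signals, was called lower in CLL than in non-CLL cells (log2 -1.41, adjusted p = 0.00406), a call that ended after median scaling (adjusted p = 0.22).

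Of 2 other PIM kinase genes, Pim2 was called higher in CLL than in aged wild-type cells (60.2 ± 39.6 TPM in CLL cells and 17.2 ± 8.01 TPM in aged wild-type cells, log2 1.59, adjusted p = 0.0497, limma), a call that ended without CLL library 5 (adjusted p = 0.0514), and in non-CLL cells against aged wild-type cells (log2 1.73, adjusted p = 0.00222, limma). Both calls ended after median scaling (log2 0.64, adjusted p = 0.33 in CLL, and 0.088, adjusted p = 0.882 in non-CLL cells). They also ended at 20 TPM or more (adjusted p = 0.133 and 0.0652) and after background subtraction (0.16 and 0.0877), but not with scaling on genes over 20 TPM. Against aged wild-type cells, 2.94% of all genes were called higher in CLL and 55.8% in non-CLL cells. Of 6 other SOCS family genes, none was called by limma in either comparison of CLL cells. Against aged wild-type cells 2 had an unadjusted p under 0.05, beside 46.1% of all genes, and against non-CLL cells 1, beside 39.4%. Cish (3.41 TPM in non-CLL and 0.51 TPM in aged wild-type cells) and Socs4 (25.5 TPM in non-CLL and 11.4 TPM in aged wild-type cells) were called higher in non-CLL cells against aged wild-type cells, beside 55.8% of all genes. Every aged wild-type library held Cish under 1 TPM. It passed the filter only through the non-CLL libraries, so its call is a description. The non-CLL level of Cish lies under the background, and both changes turned negative after median scaling.

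Among receptors and cytokines of the pathway, Il5ra and Il10 were called higher in CLL cells against both other aged groups. Il5ra, the interleukin-5 receptor chain, stood at 219 ± 50.1 TPM in the 5 CLL libraries, 25.2 ± 11.2 TPM in the 4 non-CLL libraries and 17.0 ± 11.3 TPM in the 3 aged wild-type libraries (mean ± SD), called higher against both (adjusted p = 1.5e-07 and 1.01e-06, limma). Il10 stood at 99.6 ± 78.3 TPM in the 5 CLL libraries, 11.0 ± 3.72 TPM in the 4 non-CLL libraries and 2.399 ± 2.23 TPM in the 3 aged wild-type libraries (mean ± SD), also called higher against both (adjusted p = 0.00472 and 0.00567, limma). Its non-CLL mean lies under the 90th percentile of the olfactory receptor genes there (15.2 TPM), so the size of that change is uncertain. Against aged wild-type cells, where 2.94% of all genes were called higher and 0.604% lower, 4 of 37 receptor genes were called higher and 2 lower in CLL cells, the larger fall being that of Il21r (log2 -1.68). Of 21 cytokine genes 2 were called higher and 1 lower (Osm, -1.87), and of 28 STAT targets 2 higher, led by Prdm1, which drives plasma cell formation (2.06, and 1.10 with its call ended after median scaling), and 2 lower. Of 16 phosphatases, PIAS proteins and adaptors only Ptprc was called, lower (-1.07). The calls ended without aged wild-type library 1 for Il21r (adjusted p = 0.0715), without aged wild-type library 1 or 3 for Ptprc (0.14 and 0.197), and without these or CLL library 2 for Osm (0.141, 0.187 and 0.0617).

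Against non-CLL cells, where 0.744% of all genes were called higher and 5.02% lower, 2 of 38 receptor genes were called higher and 9 lower in CLL cells, led by Lifr, the receptor of leukaemia inhibitory factor (log2 -4.97). Of 23 cytokine genes 2 were called higher and 2 lower (Ifnb1 -1.84), and of 28 STAT targets 1 higher, Myc (1.86), and 3 lower (Ccnd1 -2.87). The Lifr call ended without CLL library 4 or 5 or non-CLL library 2 or 4 (adjusted p from 0.0518 to 0.0603). The Ccnd1 call ended without CLL library 1, 4 or 5 or non-CLL library 2, 4 or 6 (0.0536 to 0.117), and that of Ifnb1, which lies at the background level in non-CLL cells, in 8 of the 9 fits that left out 1 library. In non-CLL against aged wild-type cells, 17 of 38 receptor genes and 17 of 23 cytokine genes were called higher and none lower, beside 55.8% of all genes called higher. Of these, 14 of the 17 receptor genes and 17 of the 17 cytokine genes had non-CLL means at or under 15.2 TPM, the 90th percentile of the olfactory receptor genes there, and 6 and 11 were under 1 TPM in every aged wild-type library. These counts cannot be told from the background.

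The gene whose log2 levels followed a member most closely over the 12 aged libraries was found among 6782 genes with a mean of at least 20 TPM. It was Dock11 for Jak1 (Pearson r = 0.97), Gcm2 for Pim1 (0.97), Iigp1, an interferon-inducible GTPase gene, for Stat3 (0.95) and Ngrn for Stat5b (0.91). It was Ctps2 for Jak2 (0.90), Als2cr4 for Jak3 (0.89), Abcf2 for Stat6 (0.88) and the interferon-inducible Tgtp2 for Stat5a (0.87). Socs1 and Socs3 had means under 20 TPM and were not matched. The 12 libraries share the 3 groups and the background signal, so these values are a description.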

How the data were processed

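RNA was sequenced from B cells isolated from mouse spleen with magnetic beads, per the labels' protocols, which give the aged set a purity of 85% or more. The 18 RNA libraries were analysed, and 12 chromatin samples were not used here. Both deposited tables hold TPM computed by the authors, and each library sums to 1000000. The labels do not name the unit of the young table, which was read from those sums. STAR 2.4.0.1, Bowtie2 2.3.4.1, MACS2 2.2.0 and mm10 are listed per the submitters' processing notes. The sources used here do not say which tool gave the TPM, nor the annotation and strandedness. TPM keeps no record of depth, so no counting interval is given.

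Rows with a date in place of a gene name (26 in the young and 25 in the aged table) and 887 unnamed rows of the young table, holding 4.44 to 9.36% of TPM, were left out. Genes reaching 1 TPM in enough libraries to fill the smaller group were tested as log2(TPM + 1) with limma 3.58.1 in R 4.3.3 (trend, robust, two-sided), each table on its own and with only the compared groups, adjusted by Benjamini-Hochberg over all genes tested. The code was tested on simulated data. The members and lists were chosen with earlier results of these data known. Of each other list, the called genes with the largest change were named, at most 3 in each direction. CLL and non-CLL libraries of 1 number come from the same mouse, per the series' design text, with correlations of their deviations from -0.03 to 0.13, and the fit with the mouse as a block was run beside the main one. Coordinates and sequences are from RefSeq tables of GRCm38.p6, in which all 10 genes were matched. Alternatives covered the pseudocount, the filter, scaling, background, library weights, the block and each library left out. One further gene of the pathway is not reported here.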

Additional observations from a re-analysis of the deposited data

Results flagged for a closer look

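In 20 checks (the 10 genes in the CLL and in the non-CLL group, the groups with at least 4 libraries), 2 had a library far from the others, where chance flags about 1 in 20 groups. Jak3 stood at 30.9 TPM in CLL library 6, the only CLL library from a homozygous mouse, against 12.02 to 16.7 TPM in the other CLL libraries. That library also had the highest olfactory receptor median of the CLL group (9.66 TPM). Stat5a stood at 38.2 TPM in CLL library 5, against 21.2 to 23.9 TPM in the other CLL libraries. The cause of either was not tested.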

How the results depend on the processing

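In young B cells 7 to 9 of the 10 genes and 4511 to 6860 genes in all were called when 1 library was left out, 4 and 2858 without wild-type libraries 1 and 2, and 4002 genes at 20 TPM or more. Whether the numbers of the young libraries pair them was not settled. Deviations of libraries with the same number correlated at -0.10, 0.24 and 0.32, and the fit with the number as a block called the same 8 of 10. The log2 change of Stat5b turned to -0.060 with median scaling and -0.084 with scaling on genes over 20 TPM, an alternative chosen after seeing the data.

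For CLL against aged wild-type cells, 0 to 3 of the 10 genes and 345 to 8222 genes in all were called when 1 library was left out. The genes called in all (and of the 10, where not 0) were 8853 (3) with a pseudocount of 0.1 TPM, 457 with no filter, 149 at 20 TPM or more, 1155 (4) with median scaling, 5002 (2) with scaling on genes over 20 TPM, 12299 (2) with library weights, 101 after background subtraction, 6712 (3) with all aged groups in 1 fit and 2 with the replicate block, whose numbers do not pair these groups. Socs1 turned to 0.027 with library weights and Jak2 to 0.48 with the block.

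For CLL against non-CLL cells, 0 to 6 of the 10 genes and 325 to 11118 genes in all were called when 1 library was left out. The genes called in all were 256 with a pseudocount of 0.1 TPM, 232 at 20 TPM or more, 280 with median scaling, 886 with scaling on genes over 20 TPM, 11705 (6 of the 10) with library weights, 348 after background subtraction, 3387 (1) with all aged groups in 1 fit, 697 with the replicate block and 11173 (4) without mouse 6. Median scaling turned Jak1 to 0.19, Stat5a to 0.088 and Stat5b to 0.42, library weights turned Stat6 to -0.12, and leaving out mouse 6 turned Jak2 to -0.089 and Stat6 to -0.11. The block changed no member's call.

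For non-CLL against aged wild-type cells, 0 to 4 of the 10 genes were called when 1 library was left out, 10 with median scaling and 4 with library weights, and 83 genes in all at 20 TPM or more and 43 after background subtraction. Median scaling turned Jak3 to -1.06, Socs1 to -1.03, Socs3 to -1.53, Pim1 to -1.29, Cish to -0.11 and Socs4 to -0.54, library weights turned Stat3 to 0.28 and background subtraction turned Socs3 to -1.05. No paired analysis was possible because these groups come from different mice.

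With 1 library left out, log2 changes crossed 0 for Jak2 (-0.72 to 0.19), Socs1 (-0.68 to 0.28) and Stat6 (-0.29 to 0.011) in CLL against aged wild-type cells, and for Jak2 (-0.11 to 0.19) and Stat6 (-0.12 to 0.15) in CLL against non-CLL cells. In non-CLL against aged wild-type cells this held for Jak2 (-0.76 to 0.15), Pim1 (-0.10 to 0.87), Stat3 (-0.32 to 0.26), Stat5a (-0.33 to 0.042) and Stat5b (-0.24 to 0.12). No member crossed 0 this way in young B cells. Depth is unknown, and in the aged set the background limits what low values can show. The 90th percentile of the olfactory receptor genes was 12.6 to 21.8 TPM in non-CLL libraries and 2.39 to 15.7 TPM in CLL libraries. The causes of the log2 changes were not tested.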
